A study of Homo sapiens with 6 samples.

Results

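RNA levels of 48 genes for protein folding in the endoplasmic reticulum (ER) and for ER-associated degradation were examined in 2 castration-resistant prostate cancer cell lines treated with HSP70 inhibitors. The members were taken from a list of gene symbols, and all 48 were matched to an Ensembl identifier among the 60658 listed in each library. By their known function, 24 were grouped as folding members, 21 as degradation members and 3 as subunits of the oligosaccharyltransferase, which adds glycans to new chains.

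Chains that enter the ER are held by chaperones of the HSP70 and HSP90 families, receive glycans that lectin chaperones read, and gain disulfide bonds through isomerases and oxidases. Chains that fail to fold are recognised by their trimmed glycans, passed through the HRD1 ubiquitin ligase complex, pulled into the cytosol by the ATPase VCP and degraded by the proteasome. The unfolded protein response raises transcription of genes of both kinds, in part through ER stress response elements in their promoters, and is well known in secretory epithelium such as that of the prostate.

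C4-2B MDVR, made resistant to enzalutamide from C4-2B, a subline of LNCaP, was kept in medium with 20 µM enzalutamide, while CWR22Rv1 was kept without it. A difference between the lines therefore cannot be told apart from a difference in the medium. Treatment lasted 48 h, with DMSO as the vehicle or with apoptozole (APO) or VER155008 (VER) at 10 µM each, structurally unrelated small molecules that block the ATPase activity of HSP70, and 1 library was sequenced for each of the 6 conditions. No condition had a replicate, so differences could not be checked against a spread and carry no p-value. The source label of the C4-2B MDVR libraries names LNCaP-C4-2B and a parental cell type, whereas the titles and the series design name C4-2B MDVR, which was followed here.

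Levels are given in FPKM, fragments per kilobase of transcript scaled to the mapped fragments of the library, and every member was at 3.31 FPKM or more in every library, so all 48 passed the filter on low values. All 10 markers of prostate luminal cells examined were above 1 FPKM in all 6 libraries. Of 8 markers of fibroblasts, immune and endothelial cells, COL1A1 and CD68 passed 1 FPKM in the C4-2B MDVR libraries and COL1A1 in the CWR22Rv1 libraries. Genes of the mitochondrial chromosome held 14.8% to 16.4% of the FPKM total of C4-2B MDVR libraries, 25.7% for CWR22Rv1 under DMSO and VER, and 10.4% under APO. In GENCODE 29, 13 members overlap another gene on their strand and 28 a gene on the opposite strand, such as ALG12 for CRELD2 and SMARCB1 for DERL3, and whether the counting used the strand was not stated, so these reads may not be told apart. In bulk RNA a change in the mix of cells and a change in the RNA of each cell cannot be told apart.

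The log2 fold change of a gene was its log2(FPKM + 0.1) with an inhibitor minus that with DMSO in the same line, and a member was counted as higher or lower past 1.2-fold, the threshold of the study. Both contrasts of a line use the same DMSO library. In C4-2B MDVR cells 37 of 48 members were higher with APO and 1 was lower, where 37.7% and 35.4% of the 20122 genes compared were higher and lower. With VER 40 members were higher and 1 lower, against 35.6% and 34.9% of all genes. CWR22Rv1 cells with APO had 14 members higher and 16 lower, against 35.6% and 39.2% of the 21608 genes compared. With VER 26 members were higher and 5 lower in that line, against 32.1% and 32.3% of all genes. Calls are given on the deposited scale, and under 1 or more of 3 rescalings of the libraries the call changed for 2 members (APO) and 1 member (VER) of C4-2B MDVR and for 14 (APO) and 8 (VER) of CWR22Rv1.

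At 2-fold, C4-2B MDVR cells had 15 members higher with APO and 16 with VER, and none lower. The shares of all genes past 2-fold were 15.4% higher and 13.3% lower with APO, and 14.4% and 13.3% with VER. In CWR22Rv1 cells 1 member was higher and 8 were lower with APO, against 13.8% and 16.8% of all genes. With VER 4 were higher and none lower, against 10.8% and 8.92%. Over the 48 members, the median log2 fold change in C4-2B MDVR cells was 0.74 with APO and 0.78 with VER, and in CWR22Rv1 cells -0.10 and 0.30, while the median over all genes compared lay between -0.01 and 0 in the 4 contrasts.

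**Figure D1:**
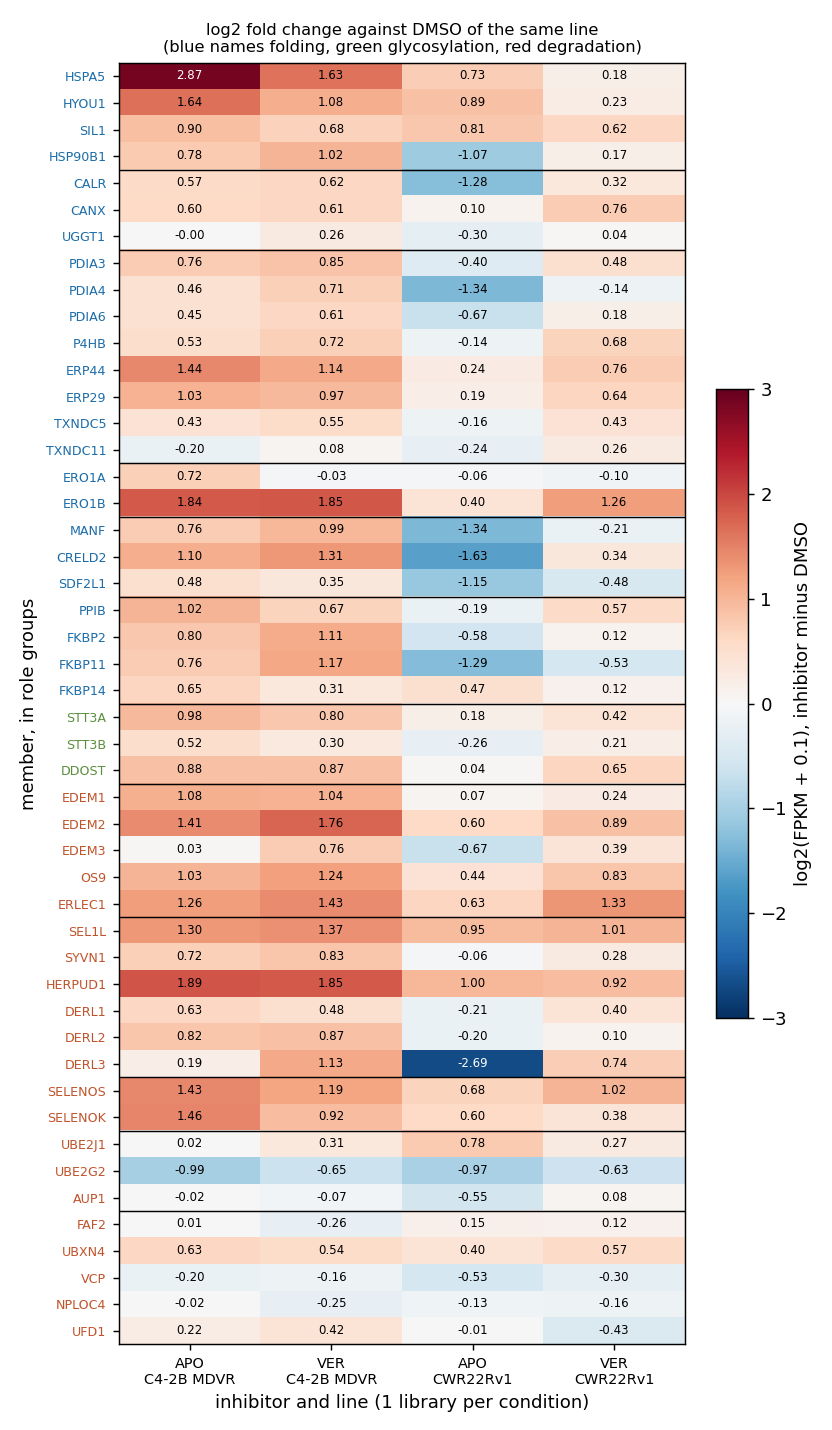
Log2 fold change against DMSO of the same line for each of the 48 members (rows, separated by role) in the 4 contrasts (columns, 1 library per condition), from blue (lower) to red (higher). The C4-2B MDVR columns are mostly red, and the APO column of CWR22Rv1 holds the lowest values, down to -2.69 for DERL3.

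Of the 48 members, 42 had a promoter sequence in RefSeq on GRCh38.p14, from 250 bases before to 50 bases after an annotated start. These were searched on both strands for the ER stress response element (ERSE, CCAAT, then 9 bases of any kind, then CCACG), which the factors ATF6 and NF-Y are known to bind. A second form (ERSE-II, ATTGG, 1 base, CCACG) and the unfolded protein response element (UPRE, TGACGTGG), known from XBP1, were searched as well. ERSE was found in 7 members with a promoter sequence (16.7%), against 25 of the 27305 genes with a promoter sequence (0.0916%), or 27 of 35116 promoters (0.0769%). ERSE-II was found in 3 members (7.14%), against 0.0696% of genes and 0.0541% of promoters, and UPRE in 5 members (11.9%), against 0.927% of genes and 0.729% of promoters. The genes counted for each element include the members. These elements are known from genes of the same kind as the members, so the shares are a description and not a test. ERSE and ERSE-II share their CCACG part, and in HYOU1 a UPRE overlapped an ERSE-II by 5 bases.

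The ERSE and ERSE-II of the members, which recur beside their values, are shown on the strand of the gene, 5′ to 3′, with the element in capitals and up to 20 flanking bases in lower case. Where the element is on the opposite strand, the capitals begin with CGTGG. Those for which the flanks touch an annotated exon are given without them.
HSPA5: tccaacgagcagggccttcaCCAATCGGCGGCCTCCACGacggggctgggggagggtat
CALR: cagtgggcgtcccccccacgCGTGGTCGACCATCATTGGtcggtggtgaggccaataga
CRELD2: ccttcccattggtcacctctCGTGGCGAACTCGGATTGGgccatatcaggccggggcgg
ERO1B: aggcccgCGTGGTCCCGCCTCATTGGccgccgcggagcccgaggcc
HSP90B1, first element: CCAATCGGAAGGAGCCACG
HSP90B1, second element: CGTGGTGCGGCGCGATTGG
PDIA6: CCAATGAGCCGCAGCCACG
CANX: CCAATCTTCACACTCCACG
SDF2L1, ERSE-II: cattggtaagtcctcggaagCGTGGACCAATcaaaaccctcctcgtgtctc
HYOU1, ERSE-II nearer the start: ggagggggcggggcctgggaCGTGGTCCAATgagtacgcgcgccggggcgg
HYOU1, ERSE-II farther from the start: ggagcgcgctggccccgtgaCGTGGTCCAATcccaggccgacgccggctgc
HERPUD1, ERSE-II: ATTGGGCCACG
The HSPA5 stretch is at chr9:125241371-125241429 on the minus strand and ends upstream of the gene. Those of CALR at chr19:12938364-12938422 and SDF2L1 at chr22:21642094-21642144 are upstream of genes on the plus strand, and that of CRELD2 at chr22:49918534-49918592 is in an intron of the annotated gene. The ERO1B stretch is at chr1:236282163-236282208 and those of HYOU1 are at chr11:119057254-119057304 and chr11:119057360-119057410, all upstream of genes on the minus strand. The HERPUD1 element is at chr16:56932025-56932035, upstream of the gene, and the PDIA6 element at chr2:10812853-10812871 is intronic in GENCODE 29. Both HSP90B1 elements, at chr12:103930216-103930234 and chr12:103930321-103930339, and that of CANX, at chr5:179698778-179698796, lie in an annotated exon.

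Among the chaperones of the HSP70 and HSP90 families, HSPA5 had the log2 fold change furthest from 0 of any member. HSPA5 (BiP, the HSP70 of the ER, chr9:125234853-125241330 on GRCh38, minus strand) was at 278, 2035 and 863 FPKM in C4-2B MDVR cells (DMSO, then APO, then VER) and at 437, 727 and 495 FPKM in CWR22Rv1 cells in the same order. Its fold change with APO was 7.32 in C4-2B MDVR cells, then 1.66 in CWR22Rv1 cells, and with VER 3.10 and 1.13. It was highest in the APO library of either line, and within 1.2-fold of DMSO with VER in CWR22Rv1 cells. Of the summed FPKM of the folding members, HSPA5 alone held 6.62% under DMSO, 23.8% with APO and 11.5% with VER in the former line, and 6.92%, 16.0% and 6.25% in the latter.

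HYOU1, a large HSP70 relative that exchanges the nucleotide of BiP, was at 115, 359 and 244 FPKM in C4-2B MDVR cells and 114, 210.4 and 133 FPKM in CWR22Rv1 cells. SIL1, the other exchange factor of BiP, was at 43.4, 80.9 and 69.8 FPKM and 23.4, 41.1 and 35.9 FPKM. Both had the order APO over VER over DMSO in both lines, as HSPA5 had, and SIL1 passed 1.2-fold in all 4 contrasts. HSP90B1 (GRP94, the HSP90 of the ER), a member outside the rule for named genes, was chosen after its values were seen. It was at 461, 791 and 936 FPKM in C4-2B MDVR cells but at 1162, 555 and 1311 FPKM in CWR22Rv1 cells, so that APO was above DMSO in one line and below it in the other, with log2 fold changes of 0.78 and -1.07.

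Of the lectin chaperones, which hold glycoproteins by their glucose residues, CALR (calreticulin, chr19:12938578-12944489) was at 563, 835 and 865 FPKM in C4-2B MDVR cells and 1153, 474 and 1441 FPKM in CWR22Rv1 cells. Its log2 fold change with APO was 0.57 in the former and -1.28 in the latter line. CANX, the membrane-bound calnexin with the same glycan preference, differed less with APO in CWR22Rv1 cells, with log2 fold changes of 0.60 and 0.10 in the same order, and was higher with VER in both lines, by 0.61 and 0.76. UGGT1, which adds glucose back to unfolded glycoproteins, was within 1.2-fold of DMSO in 3 contrasts and lower with APO in CWR22Rv1 cells, at -0.30, on the deposited scale. Under the rescalings described below UGGT1 passed as higher with VER in C4-2B MDVR cells in 2 of 3, at 0.28 in both. Its APO value in CWR22Rv1 cells, -0.18 after rescaling to the same sum, no longer passed in 1.

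In C4-2B MDVR cells 7 of the 8 disulfide isomerases were higher with each inhibitor, against 37.7% (APO) and 35.6% (VER) of all genes. The exception was TXNDC11. PDIA3 (ERp57, the partner of the lectin chaperones) was at 334, 567 and 601 FPKM in that line and 387, 294 and 539 FPKM in CWR22Rv1 cells. PDIA4, which carries several thioredoxin-like domains, was at 182, 250.4 and 298 FPKM and 311, 123 and 282 FPKM. Neither reached its DMSO level in the APO library of CWR22Rv1 cells, where PDIA4 had a log2 fold change of -1.34 and PDIA3 of -0.40. PDIA6, which acts on substrates of BiP, was the remaining isomerase past 1.2-fold there, at -0.67, against 0.45 in C4-2B MDVR cells.

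ERP44, which retrieves oxidases and unassembled subunits from the Golgi, had the largest changes of the isomerases in C4-2B MDVR cells, 1.44 with APO and 1.14 with VER, and 0.24 and 0.76 in CWR22Rv1 cells. ERP29, a relative without the usual pair of active-site cysteines, had 1.03 and 0.97, then 0.19 and 0.64. P4HB, the founding protein disulfide isomerase, had 0.53 and 0.72, then -0.14 and 0.68, and TXNDC5, another isomerase, 0.43, 0.55, -0.16 and 0.43 in the same order. TXNDC5 overlaps the readthrough gene BLOC1S5-TXNDC5 on its strand, so its value is uncertain. These 4 isomerases were within 1.2-fold of DMSO with APO in CWR22Rv1 cells and higher in the other 3 contrasts on the deposited scale. Under the rescalings described below none of the 4 APO calls in CWR22Rv1 cells held throughout. ERP44 and ERP29 passed as higher after rescaling to the same sum, at 0.35 and 0.31. P4HB and TXNDC5 passed as lower without mitochondrial genes, at -0.30 and -0.31. TXNDC11, which takes part in degradation with EDEM proteins, was at 35.6, 31.0 and 37.7 FPKM and 16.0, 13.5 and 19.2 FPKM, within 1.2-fold of DMSO in all 4 contrasts on the deposited scale. Under the rescalings described below TXNDC11 passed as lower with APO in C4-2B MDVR cells in 2 of 3, at -0.35 and -0.36, as lower with APO in CWR22Rv1 cells in 1, at -0.39, and as higher with VER in that line in 1, at 0.31.

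The oxidases that recharge the isomerases differed from each other. ERO1A was at 26.7, 44.1 and 26.3 FPKM in C4-2B MDVR cells and at 23.6, 22.7 and 22.1 FPKM in CWR22Rv1 cells, and passed 1.2-fold with APO in C4-2B MDVR cells only. ERO1B, its paralog, was at 3.69, 13.4 and 13.6 FPKM and 3.31, 4.40 and 8.07 FPKM, and was higher in all 4 contrasts, by 1.84 and 1.85 on the log2 scale with APO and VER for C4-2B MDVR and by 0.40 and 1.26 for CWR22Rv1. ERO1B had the lowest level of the 48 members in 4 of the 6 libraries.

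The 3 soluble stress proteins of the ER lumen were higher with both inhibitors in C4-2B MDVR cells, against 37.7% (APO) and 35.6% (VER) of all genes. With APO in CWR22Rv1 cells all 3 were lower past 2-fold, against 16.8% of all genes. MANF, a secreted factor that binds BiP, was at 164, 278 and 326 FPKM and 268, 106 and 232 FPKM in the 2 lines. CRELD2, a secreted protein with EGF-like repeats that is induced by ER stress, was at 79.9, 171 and 198 FPKM and 230.2, 74.2 and 292 FPKM. SDF2L1, which works with BiP and its J-domain partners, was at 214, 299 and 273 FPKM and 183, 82.6 and 131 FPKM. With APO the log2 fold changes of MANF, CRELD2 and SDF2L1 were 0.76, 1.10 and 0.48 in C4-2B MDVR cells, then -1.34, -1.63 and -1.15 in CWR22Rv1 cells. With VER in CWR22Rv1 cells they divided, with CRELD2 higher at 0.34, SDF2L1 lower at -0.48 and MANF within 1.2-fold at -0.21. Under 2 of the 3 rescalings described below MANF passed as lower there, at -0.27 in both.

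Prolyl isomerases speed the turn of proline bonds during folding. PPIB (cyclophilin B) was at 471, 953 and 752 FPKM in C4-2B MDVR cells and at 650.4, 568 and 968 FPKM in CWR22Rv1 cells, where APO left it within 1.2-fold of DMSO. FKBP11, a membrane-bound member of the FK506-binding family, was at 24.1, 40.9 and 54.2 FPKM and 16.1, 6.52 and 11.2 FPKM and was higher with both inhibitors in the former line and lower with both in the latter. FKBP2 and FKBP14, of the same family, had log2 fold changes with APO of 0.80 and 0.65 in C4-2B MDVR cells, then -0.58 and 0.47 in CWR22Rv1 cells. FKBP14 was thus the single prolyl isomerase that was higher with APO in both lines.

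The 3 subunits of the oligosaccharyltransferase were higher with both inhibitors in C4-2B MDVR cells, against 37.7% (APO) and 35.6% (VER) of all genes. STT3A, the catalytic subunit that works at the translocon, was at 171, 337 and 298 FPKM and 256, 290.1 and 342 FPKM, and it shares its strand with an overlapping stretch of CHEK1. STT3B, the other catalytic subunit, and DDOST, a structural one, had 0.52 and 0.88 with APO in C4-2B MDVR cells. In CWR22Rv1 cells with APO the 3 values, 0.18, -0.26 and 0.04, were all within 1.2-fold on the deposited scale. STT3B passed as lower under 2 of the 3 rescalings described below, and STT3A as higher, at 0.30, after rescaling to the same sum.

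**Figure D2:**
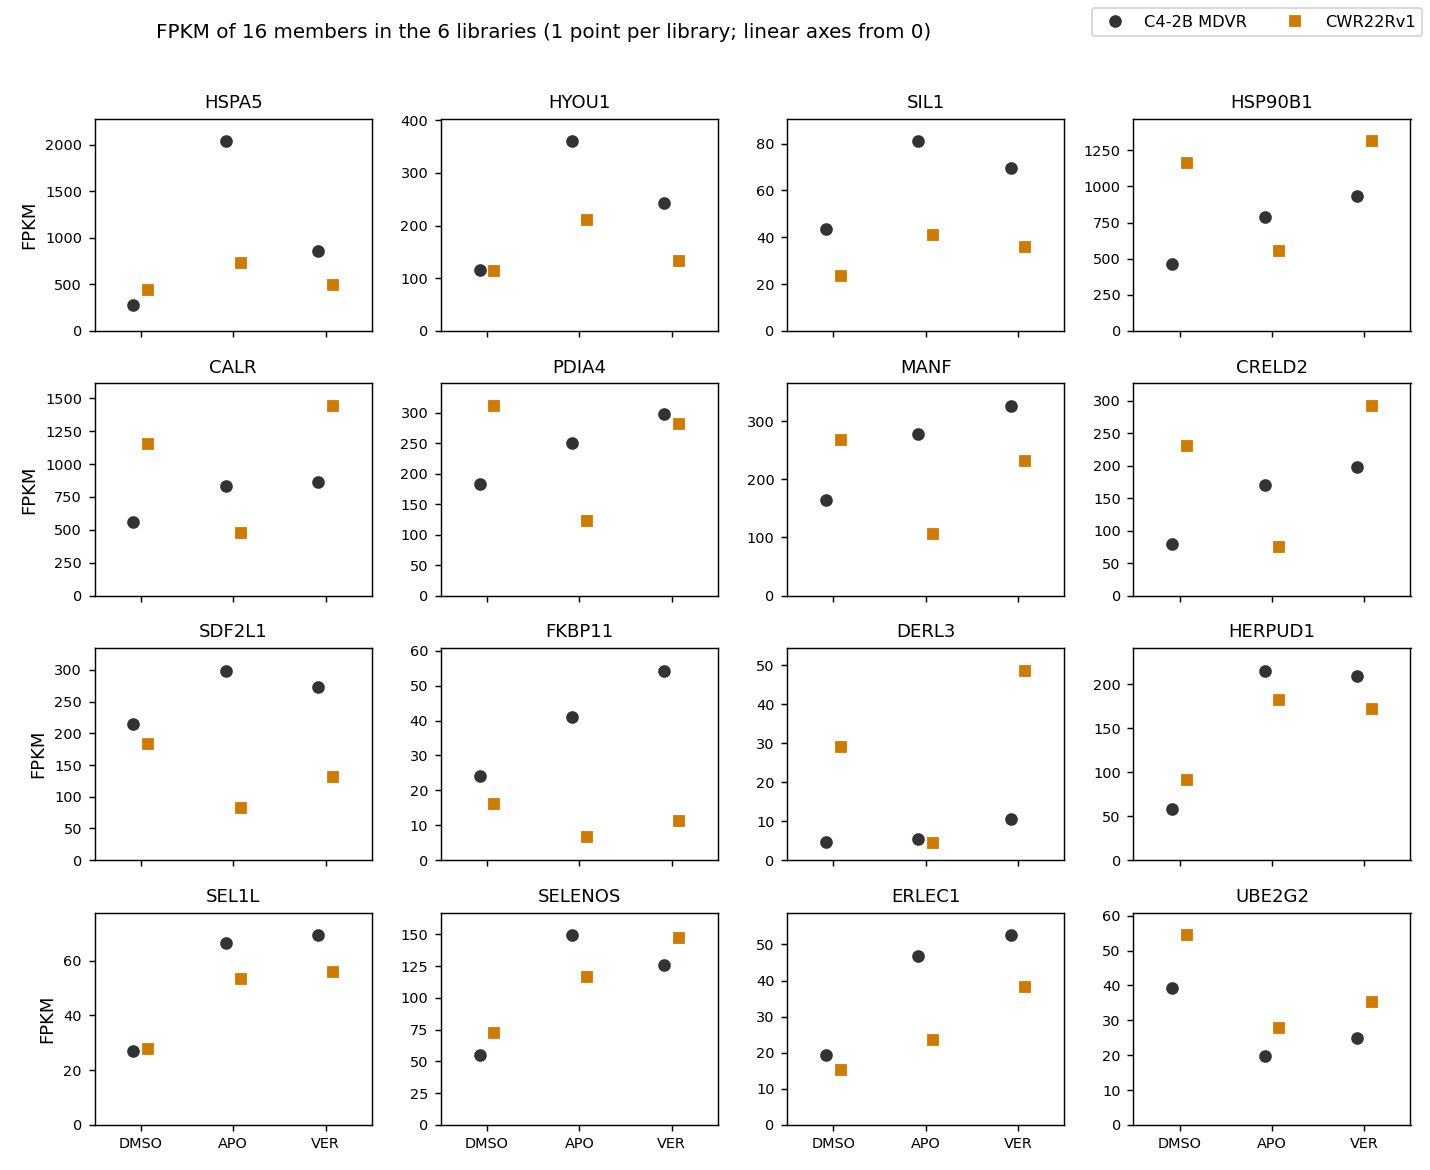
FPKM of 16 members (panels, linear axes from 0) with DMSO, APO and VER in C4-2B MDVR (circles) and CWR22Rv1 cells (squares), 1 point per library. HSPA5, HYOU1, SIL1, HERPUD1, SEL1L, SELENOS and ERLEC1 were above DMSO with both inhibitors in both lines, UBE2G2 was below it, and HSP90B1, CALR, PDIA4, MANF, CRELD2, SDF2L1 and FKBP11 were above DMSO with APO in C4-2B MDVR cells and below it in CWR22Rv1 cells.

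Turning to degradation, the mannosidase-like EDEM proteins trim the glycans of chains that fail to fold, and the lectins OS9 and ERLEC1 read the result. EDEM1 was at 27.2, 57.4 and 55.9 FPKM in C4-2B MDVR cells and at 15.9, 16.7 and 18.8 FPKM in CWR22Rv1 cells, past 1.2-fold in the former line and not in the latter. EDEM2, which makes the first cut, was at 17.2, 45.8 and 58.2 FPKM and 15.1, 22.8 and 27.9 FPKM. ERLEC1 was at 19.5, 46.7 and 52.5 FPKM and 15.1, 23.4 and 38.2 FPKM. EDEM2 and ERLEC1 were higher in all 4 contrasts, as was OS9, whose log2 fold changes were 1.03 and 1.24 in C4-2B MDVR cells, then 0.44 and 0.83 in CWR22Rv1 cells. EDEM3 differed from its relatives, with 0.03 and 0.76 in C4-2B MDVR cells, then -0.67 and 0.39 in CWR22Rv1 cells, so that it was lower with APO in the latter.

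Within the HRD1 complex, the scaffold SEL1L (chr14:81471549-81533861, minus strand) was at 26.8, 66.2 and 69.2 FPKM in C4-2B MDVR cells and 27.6, 53.3 and 55.8 FPKM in CWR22Rv1 cells. HERPUD1, a short-lived organiser of the complex (chr16:56932048-56944863, plus strand), was at 58.2, 215 and 209.9 FPKM and 91.1, 182 and 172 FPKM. Both inhibitors came with nearly the same level of either gene within a line, and both genes were higher in all 4 contrasts, HERPUD1 by 3.70-fold and 3.60-fold in C4-2B MDVR cells, then by 2.00-fold and 1.89-fold in CWR22Rv1 cells. With APO in CWR22Rv1 cells HERPUD1 was the 1 member higher by 2-fold, and it lay at the cutoff, with a log2 fold change of 1.0002. With VER 4 other members passed 2-fold there. SYVN1 (HRD1 itself, the ubiquitin ligase) had 0.72 and 0.83 in C4-2B MDVR but -0.06 and 0.28 in CWR22Rv1 cells, and it overlaps FAU on its strand.

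DERL3, 1 of the 3 derlins that form part of the retrotranslocation channel, had the lowest log2 fold change of any member. It was at 4.76, 5.45 and 10.5 FPKM in C4-2B MDVR cells and at 29.1, 4.42 and 48.6 FPKM in CWR22Rv1 cells, a log2 fold change with APO of -2.69 in the latter. The DMSO level of CWR22Rv1 cells was several times that of C4-2B MDVR cells, and with APO the levels of both lines lay close together. DERL1 and DERL2 had 0.63 and 0.82 with APO in C4-2B MDVR cells and -0.21 and -0.20, within 1.2-fold, in CWR22Rv1 cells.

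Both selenoproteins were higher in all 4 contrasts, a pattern of 9.59% of the 18059 genes compared in both lines. SELENOS, which ties VCP to the derlins, was at 55.2, 149 and 126 FPKM in C4-2B MDVR cells and 72.6, 116 and 147 FPKM in CWR22Rv1 cells. SELENOK, which binds the same partners, was at 44.9, 123 and 85.0 FPKM and 55.5, 84.3 and 72.1 FPKM, and 3 annotated pseudogenes carry its name, so reads may have been split. SELENOK had the order APO over VER over DMSO in both lines, while for SELENOS the order of APO and VER differed between the lines.

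The enzymes that conjugate ubiquitin did not share one direction. UBE2G2, an E2 enzyme recruited by AUP1, was at 39.3, 19.7 and 24.9 FPKM in C4-2B MDVR cells and 54.4, 27.7 and 35.1 FPKM in CWR22Rv1 cells and was the single member lower past 1.2-fold in all 4 contrasts, a pattern held by 11.3% of the 18059 genes compared in both lines. UBE2J1, a membrane-anchored E2 enzyme, was at 11.1, 11.2 and 13.8 FPKM and 16.6, 28.5 and 20.0 FPKM, and it was the 1 member whose response to APO was lower in C4-2B MDVR than in CWR22Rv1 cells past 1.2-fold. AUP1 had log2 fold changes of -0.02 and -0.07 in C4-2B MDVR cells, then -0.55 and 0.08 in CWR22Rv1 cells, and was lower with APO in the latter line.

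The 5 genes of the machinery that extracts chains with VCP had no common direction. VCP, the ATPase, was at 136, 118 and 121 FPKM and 110.2, 76.1 and 89.7 FPKM, lower past 1.2-fold with both inhibitors in CWR22Rv1 cells and within it in C4-2B MDVR cells. Under the rescalings described below, VCP passed as lower with APO in C4-2B MDVR cells in 2 of 3, at -0.35 and -0.36, and its VER value in CWR22Rv1 cells, -0.25 at a median ratio of 1, no longer passed in 1. Its cofactor NPLOC4 was at 46.9, 46.3 and 39.4 FPKM and 32.1, 29.3 and 28.8 FPKM, and the membrane adaptor FAF2 was at 43.2, 43.5 and 36.1 FPKM and 29.2, 32.3 and 31.8 FPKM, both within 1.2-fold in every contrast on the deposited scale, although NPLOC4 passed as lower with APO in CWR22Rv1 cells, at -0.29, without mitochondrial genes. UFD1, the partner of NPLOC4, was higher with VER at 0.42 in C4-2B MDVR cells and lower in CWR22Rv1 cells at -0.43. UBXN4, which recruits VCP to the ER membrane, was higher in all 4 contrasts by 0.63, 0.54, 0.40 and 0.57.

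Folding and degradation members were then compared. In C4-2B MDVR cells 22 of 24 folding and 12 of 21 degradation members were higher with APO, against 37.7% of all genes. Their median log2 fold changes were 0.76 and 0.63. With VER 21 and 16 were higher, against 35.6% of all genes, with medians of 0.71 and 0.83. CWR22Rv1 cells with APO had 5 folding members higher (20.8%) and 11 lower (45.8%), with a median of -0.22. Degradation members numbered 9 higher (42.9%) and 5 lower (23.8%), with a median of 0.07. Of all genes 35.6% were higher and 39.2% lower, so the shares of folding members lower and of degradation members higher were near those of all genes. The degradation median turned to -0.08 after a rescaling of the libraries to one sum without mitochondrial genes. With VER 11 folding members were higher and 2 lower, and 13 degradation members were higher and 3 lower, with medians of 0.24 and 0.38. Of all genes 32.1% were higher and 32.3% lower. The difference of the class medians, folding minus degradation, was 0.13 with APO and -0.12 with VER for C4-2B MDVR and -0.29 and -0.13 in CWR22Rv1 cells, each smaller than the range within either class.

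The medians depended on which degradation members were counted. Without the 5 genes of the VCP machinery the APO contrast of C4-2B MDVR cells had a degradation median of 0.93, and the difference of the medians turned from 0.13 to -0.16. As a share of all FPKM, the folding members summed to 0.623%, 1.14% and 1.11% for DMSO, APO and VER of C4-2B MDVR, and to 0.901%, 0.703% and 1.08% in CWR22Rv1 cells. The degradation members summed to 0.133%, 0.200% and 0.221%, and to 0.145%, 0.174% and 0.183%. Of the FPKM outside the mitochondrial chromosome, the folding members held 1.21% under DMSO and 0.786% with APO in CWR22Rv1 cells, and the degradation members 0.195% in both. The folding share of that line was thus lower with APO by either total, while the degradation share was higher only with mitochondrial genes in the total. Without HSPA5 the folding sum there was 3826 FPKM, against 5882 FPKM with DMSO.

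**Figure D3:**
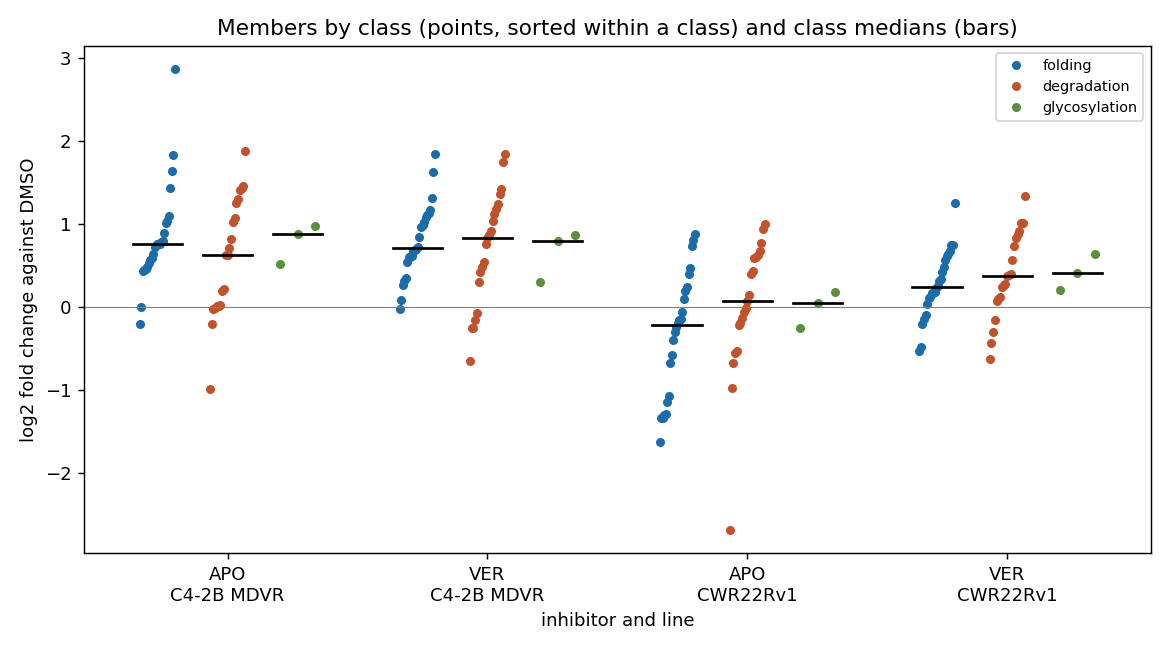
Log2 fold change against DMSO (vertical axis) of the 24 folding, 21 degradation and 3 glycosylation members in each contrast, 1 point per member sorted within its class, with a bar at the class median. With APO in CWR22Rv1 cells the folding median was -0.22 and the degradation median 0.07, and in the other contrasts both medians were above 0.

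The 2 lines shared the direction of some members and not of others. With APO 13 members were higher in both lines, 5 folding and 8 degradation, a pattern of 21.3% of the 18059 genes compared in both. Another 10 were higher in C4-2B MDVR and lower in CWR22Rv1 cells, against 8.06% of genes, and all 10 were folding members: HSP90B1, CALR, PDIA3, PDIA4, PDIA6, MANF, CRELD2, SDF2L1, FKBP2 and FKBP11. No member had the reverse pattern, which 5.09% of genes had. With VER 26 members were higher in both lines, against 17.9% of genes, and 3 were higher in C4-2B MDVR and lower in CWR22Rv1 cells, SDF2L1, FKBP11 and UFD1, against 5.97%. MANF joined these 3 under 2 of the 3 rescalings described below, to make 4.

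The APO library of CWR22Rv1 cells was also the one with a mitochondrial share of 10.4%. When the libraries were rescaled to one sum without mitochondrial genes, a setting added after the data were seen, 12 members were higher and 24 lower with APO in that line, in place of 14 and 16. That setting moved the median over genes with a mean above 1 FPKM from 0.002 to -0.15 in this contrast and from 0.01 to -0.14 in the APO contrast of C4-2B MDVR cells, and a rescaling to the same sum with these genes moved it to 0.12 and -0.13. The 10 folding members above kept both directions under that setting, under the rescaling to the same sum and under one to a median ratio of 1. Without mitochondrial genes P4HB, TXNDC5, PPIB, STT3B, DERL1 and DERL2 joined them, to make 16. The part of this library's composition in the other values was not tested.

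Members higher in all 4 contrasts numbered 10, against 9.59% of genes. They were the folding members SIL1 and ERO1B and the degradation members EDEM2, OS9, ERLEC1, SEL1L, HERPUD1, SELENOS, SELENOK and UBXN4. Under the 3 rescalings this number was 11, 13 and 8, and SIL1, EDEM2, OS9, ERLEC1, SEL1L, HERPUD1, SELENOS and SELENOK were among them each time.

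The response to APO, taken as the log2 fold change in C4-2B MDVR minus that in CWR22Rv1 cells, was larger in C4-2B MDVR past 1.2-fold for 39 members and smaller for 1, against 37.1% and 34.8% of genes. The median of this difference was 1.18 over folding and 0.62 over degradation members. It was highest for DERL3, at 2.88, CRELD2, at 2.73, HSPA5, at 2.14, and MANF, at 2.10. For VER the response was larger in C4-2B MDVR for 27 members and smaller for FAF2, against 33.3% and 32.6% of genes, with medians of 0.38 and 0.35 over folding and degradation members. The difference between the lines had no replicate and was not tested.

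Across members, the log2 fold changes of the 2 lines were also set against each other, a description over genes of the same 4 libraries and not over independent replicates. For APO, Spearman's rho was 0.39 over the 24 folding and 0.71 over the 21 degradation members, and 0.44 over all 18059 genes. For VER it was 0.20, 0.85 and 0.39 in the same order. The degradation members held nearer to one order in both lines than the folding members did.

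**Figure D4:**
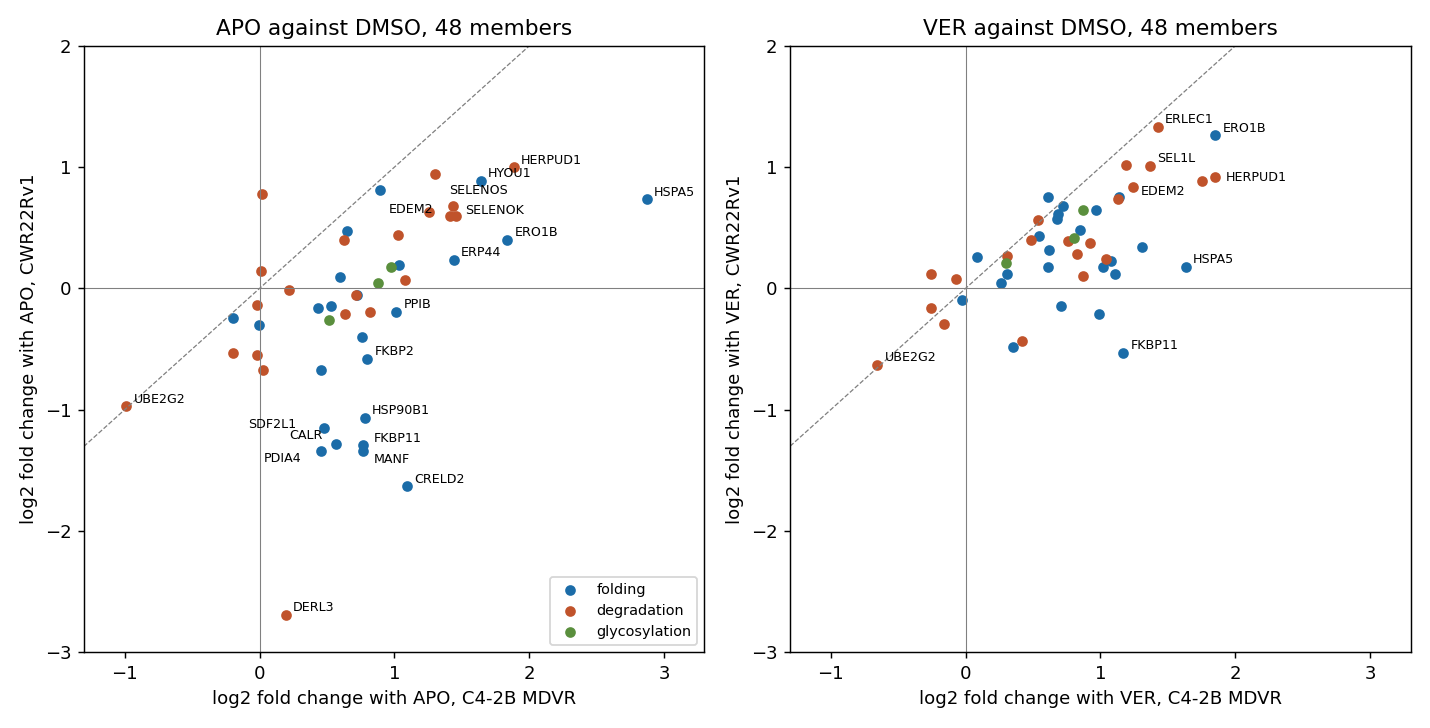
Log2 fold change of each of the 48 members in C4-2B MDVR (horizontal axis) and CWR22Rv1 cells (vertical axis) with APO (left) and VER (right), coloured by class, with the line of equality dashed. With APO 10 folding members lie to the lower right past 1.2-fold on both axes, while HERPUD1, HYOU1 and HSPA5 lie to the upper right, DERL3 at the bottom and UBE2G2 to the lower left.

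Under DMSO, 11 members were higher and 24 lower in C4-2B MDVR than in CWR22Rv1 cells, against 39.2% and 43.2% of the 20903 genes compared. UGGT1, at 2.00 on the log2 scale, and TXNDC11, at 1.15, were higher past 2-fold, and DERL3, CANX, CRELD2, HSP90B1, CALR and ERP44 were lower, between -2.59 and -1.01. SEL1L, HYOU1 and UFD1 were at nearly the same level in both lines, with differences of -0.04, 0.02 and 0.01. Of the 10 folding members that were higher with APO in one line and lower in the other, HSP90B1, CALR, PDIA4, MANF, CRELD2 and FKBP2 were higher in CWR22Rv1 cells under DMSO past 1.2-fold, FKBP11 was lower, and PDIA3, PDIA6 and SDF2L1 were within it. The DMSO library of CWR22Rv1 cells enters both comparisons.

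VER and APO, which were given at the same dose and time, were compared within each line. In C4-2B MDVR cells 9 members were higher and 8 lower with VER than with APO, against 28.5% and 32.5% of genes. HSPA5 had the largest difference, -1.24, followed in size by DERL3 at 0.94, ERO1A at -0.75 and EDEM3 at 0.73. This split depended on the scaling, with 19 higher and 4 lower after the rescaling to the same sum and 20 and 4 without mitochondrial genes.

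In CWR22Rv1 cells 32 members were higher and 5 lower with VER than with APO, against 37.3% and 34.5% of genes, and 25 and 8 after rescaling to the same sum. The medians were 0.68 over folding and 0.29 over degradation members. DERL3, at 3.43, CRELD2, at 1.97, and CALR, at 1.60, were furthest above their APO level. HYOU1, HSPA5, UBE2J1, UFD1 and FKBP14 were the 5 members lower with VER, between -0.66 and -0.35. HSPA5 and HYOU1 were therefore higher with APO than with VER in both lines.

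In C4-2B MDVR cells the 7 members with an ERSE were all higher with either inhibitor, with medians for APO and VER of 0.78 and 1.02. Of the 35 members with a promoter sequence but no ERSE, 26 and 27 were higher, with medians of 0.76 and 0.80. Of all genes 37.7% and 35.6% were higher. In CWR22Rv1 cells with APO, HSPA5 and ERO1B were higher, CALR, CRELD2, HSP90B1 and PDIA6 lower and CANX within 1.2-fold, with a median of -0.67. Of the 35 without an ERSE, 11 were higher and 10 lower there, with a median of -0.06. With VER 4 were higher and none lower, with a median of 0.32. Of the 35, 19 were higher and 4 lower with VER, with a median of 0.28, against 32.1% and 32.3% of all genes. The members printed above with this element thus had both directions with APO in CWR22Rv1 cells. Of 9 other genes with an ERSE compared in that line, 6 were higher with APO and none lower, against 35.6% and 39.2% of all genes. Of 11 in C4-2B MDVR cells 7 were higher and none lower, against 37.7% and 35.4%. Some of these higher genes were near 0, with means of 0.0173 FPKM for GLRA2 in the former count and of 0.101 and 0.0377 FPKM for FRG2B and FRG2C in the latter. GLRA2, FRG2B and FRG2C each passed the filter on low values only through the APO library of the line in question. Their direction was therefore fixed by the filter.

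Of the 3 members with an ERSE-II, HYOU1 and HERPUD1 were higher with APO in CWR22Rv1 cells and SDF2L1 was lower. All 3 were higher with both inhibitors in C4-2B MDVR cells, as were 30 (APO) and 31 (VER) of the 39 without one. Of the 5 members with a UPRE, HYOU1, TXNDC5, TXNDC11, UBE2J1 and VCP, HYOU1 and TXNDC5 were higher with APO in C4-2B MDVR cells and HYOU1 and UBE2J1 in CWR22Rv1 cells. Other genes with an ERSE-II did not share the direction of the members, with 1 of 12 higher and 3 lower with APO in C4-2B MDVR cells and 3 of 11 higher and 4 lower in CWR22Rv1 cells. Of 145 other genes with a UPRE, 70 were higher and 37 lower with APO in the former line and 61 and 46 in the latter. Beside these counts, 37.7% of all genes were higher and 35.4% lower with APO in C4-2B MDVR cells, and 35.6% and 39.2% in CWR22Rv1 cells. The DERL1, DERL3, FKBP14, PDIA3, STT3B and UFD1 promoters were not searched.

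Other genes of the same pathways, 74 in a fixed list, were counted in the same way. With APO in C4-2B MDVR cells, where 37.7% of all genes were higher and 35.4% lower, 18 of 29 other folding genes were higher (62.1%) and 3 lower (10.3%), and 16 of 35 other degradation genes were higher (45.7%) and 6 lower (17.1%). For VER, against 35.6% and 34.9% of all genes, 19 folding genes were higher (65.5%) and 3 lower, and 19 degradation genes were higher (54.3%) and 8 lower (22.9%).

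In CWR22Rv1 cells with APO, against 35.6% and 39.2% of all genes, 3 of 30 other folding genes were higher (10.0%) and 16 lower (53.3%), while 12 degradation genes were higher (34.3%), near the share of all genes, and 8 lower (22.9%). With VER, against 32.1% and 32.3%, 13 folding genes were higher (43.3%) and none lower, and 20 degradation genes were higher (57.1%) and 3 lower (8.57%). The 13 include MZB1, at 0 FPKM with DMSO and 0.159 FPKM with VER. It passed the filter on low values only through that VER library, so its direction was fixed, and it was not compared in C4-2B MDVR cells. Of 9 other subunits and partners of the oligosaccharyltransferase, C4-2B MDVR cells had 8 higher with APO and 9 with VER, and CWR22Rv1 cells had none higher and 1 lower with APO and 7 higher with VER.

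No other gene passed 2-fold in the same direction in all 4 contrasts. The highest by their mean over the contrasts were SEL1L3, a relative of SEL1L, with 2.48, 2.04, 1.65 and 0.58, DNAJC10, a disulfide reductase with a J domain, with values from 0.73 to 1.63, and RNF103, a ubiquitin ligase of the ER membrane, with 1.34, 1.07, 0.84 and 0.73, those of SEL1L3 and RNF103 in the order APO and VER in C4-2B MDVR, then APO and VER in CWR22Rv1 cells. The lowest were FKBP7 and FKBP10, of the prolyl isomerase family, with -2.66, -1.43, -2.22 and -0.16 and -0.77, 0.02, -1.47 and -0.16, and QSOX2, a sulfhydryl oxidase, with -0.79, -0.60, -0.67 and -0.08. FKBP7 was low, at 3.05 FPKM with DMSO and 0.398 FPKM with APO in C4-2B MDVR cells.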

How the data were processed

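The authors sequenced 150-base paired reads of 6 libraries and deposited FPKM per gene from Cuffnorm, with HISAT, Cufflinks and GRCh38 named in the submitters' processing notes without versions. The labels name a stranded KAPA kit and the methods a TruSeq kit. The methods name a TopHat and Cufflinks pipeline, with HISAT for the alignment of reads. They give an approximate read number common to all samples but no total per library, and FPKM hold no counts, so no counting error was computed. The members, their classes and the lists of other genes were chosen with earlier results of these data known.

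From the deposited FPKM, log2(FPKM + 0.1) was compared between libraries, which understates changes of low genes, over genes above 0.1 FPKM in 1 or more of the line's 3 libraries. Analyses used Python 3.11.15, pandas 2.3.3 and numpy 2.4.6, with figures by matplotlib 3.10.9. The calling and rescaling steps were checked on copies of a single library with set changes and no added noise. Such a check shows that the steps run as written, and not how calls hold against replicate spread. FPKM in all 6 libraries is printed for members among the 5 highest or 3 lowest in any contrast, for HSPA5 and for the lead member of each role, and HSP90B1 was added after its values were seen. Of the other pathway genes, those past 2-fold in the same direction in all 4 contrasts and the 3 highest and 3 lowest by mean log2 fold change are named. Places are from GENCODE 29 and promoters from RefSeq, both on GRCh38. Protein sequences were not analysed here.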

Additional observations from a re-analysis of the deposited data

Results flagged for a closer look

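For 13 pairs of a member and an inhibitor, the lines had opposite directions past 1.2-fold on the deposited scale. The single library of C4-2B MDVR cells was higher than its DMSO library and that of CWR22Rv1 cells was lower. Each is given as the log2 fold change in C4-2B MDVR minus that in CWR22Rv1 cells, and with 1 library per condition the difference was not tested.

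With APO the difference was 2.73 for CRELD2, 2.10 for MANF and 1.63 for SDF2L1, the soluble stress proteins. It was 1.85 for HSP90B1 and 1.85 for CALR, chaperones of the lumen. Among the disulfide isomerases it was 1.80 for PDIA4, 1.16 for PDIA3 and 1.13 for PDIA6. The prolyl isomerases FKBP11 and FKBP2 had differences of 2.06 and 1.38. These 10 genes were folding members without exception.

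With VER the difference was 1.70 for FKBP11, 0.83 for SDF2L1 and 0.85 for UFD1, a cofactor of VCP. FKBP11 and SDF2L1 were thus on both lists, whose contrasts share the DMSO library of each line.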

How the results depend on the processing

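No paired analysis was possible because the labels give 1 library per condition and no replicate numbers. No called value changed its sign, but 5 medians or differences of medians within 1.2-fold did: the degradation median with APO in CWR22Rv1 cells, from 0.07, and folding minus degradation with APO in C4-2B MDVR cells, from 0.13, under DMSO, from 0.0147, for the VER response, from 0.0237, and, under 2 settings, for VER against APO in C4-2B MDVR cells, from 0.0172, with the values below. Pseudocounts of 0.01 and 1, the filters on low FPKM and a median ratio of 1 kept every count within 1.5 times its main value. Rescaling to the same sum gave 3 members lower with APO in C4-2B MDVR cells, 3 with a smaller APO response there, medians of that difference of 0.92 over folding and 0.36 over degradation members, 19 higher and 4 lower with VER than APO in C4-2B MDVR and 8 lower in CWR22Rv1 cells. Without mitochondrial genes, a setting chosen after seeing the data, 3 were lower with APO in C4-2B MDVR cells, the degradation median with APO in CWR22Rv1 cells was -0.0797, and VER against APO in C4-2B MDVR cells gave 20 higher and 4 lower. The cause was not tested.

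At 1.5-fold, by construction fewer members passed: 14 higher and 1 lower with VER in CWR22Rv1 cells, 5 and 12 between the lines under DMSO, 15 and 0 for the VER response, and 2 and 2 in C4-2B MDVR and 21 and 1 in CWR22Rv1 cells for VER against APO. At 2-fold, higher and lower numbered 15 and 0 for APO, then 16 and 0 for VER, against DMSO of C4-2B MDVR, 1 and 8 and then 4 and 0 for CWR22Rv1, 2 and 6 under DMSO, 17 and 0 for the APO and 3 and 0 for the VER response, and 0 and 1 and then 7 and 0 for VER against APO in the 2 lines. Counting the oligosaccharyltransferase with folding gave folding minus degradation medians of -0.20 under DMSO and -0.0359 for VER against APO in C4-2B MDVR cells. Leaving out the VCP machinery gave a degradation median of 0.93 and a difference of -0.16 with APO in C4-2B MDVR cells, and differences of -0.00203 for the VER response and -0.0196 for VER against APO in C4-2B MDVR cells. With 1 library per condition, differences near 1.2-fold could not be set against any replicate spread.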
